A study of Homo sapiens with 84 samples.

Results

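The comparison described here is EpEX directly against EGF after 6 h in FaDu cells, a line from a squamous cell carcinoma of the hypopharynx. Its members are the 6 libraries with replicate number 3 or 4 that the labels give as FaDu at 6 h with EpEX (2 libraries), EGF 9 nM (2 libraries, EGF high) or EGF 1.8 nM (2 libraries, EGF low), out of 84 libraries in the series. They were chosen by their labels, and all genes were compared. EpEX was given as EpEX-Fc (50 nM), a fusion of the extracellular part of EpCAM with the constant part (Fc) of an immunoglobulin. The matching controls are cells given Fc alone for EpEX and untreated cells for EGF, with 2 libraries each at the same time point and with the same replicate numbers. All groups had been starved of serum before treatment. The doses of EpEX and EGF differ, Fc is present on only 1 side of the direct comparison, and all libraries come from 1 cell line. The labels do not say whether the replicates were separate cultures. The p-values measure the spread within groups over all 20 libraries in the fit, other treatments and times included. This spread may be technical.

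EGF binds the receptor tyrosine kinase EGFR and activates, among others, the ERK kinases, which act on transcription factors of the immediate early and AP-1 families. Typical targets are further EGFR ligands, which can act back on the same cells, and inhibitors of ERK signalling such as dual-specificity phosphatases and Sprouty proteins, which limit the response. EpEX is shed from EpCAM, a surface protein of epithelial cells, and has been described as a ligand of EGFR. The comparison asks how far the genes that respond to EpEX at 6 h differ from those that respond to EGF.

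QuantSeq 3′ RNA-seq reads the 3′ end of each transcript. Total gene counts of the 6 libraries ranged from 8041756 to 11095198. Levels are given in CPM, the read count of a gene relative to the TMM-scaled total of its library. A floor of 3 counts was 0.27 to 0.373 CPM of the unscaled totals, and lower values rest on fewer counts. These limits cover counting error only. In such bulk libraries fewer cells of a type and less RNA per cell cannot be told apart. Spearman ρ-values across 19519 genes were 0.962 between both EpEX libraries, 0.961 to 0.97 between the EGF libraries, and 0.958 to 0.97 between EpEX and EGF libraries. Medians were 0.963 between EGF libraries and 0.965 between EpEX and EGF libraries. The 21 libraries labelled FaDu with replicate numbers 1 and 2 stood apart. Their ρ-values with replicates 3 and 4 had a median of 0.839, against 0.958 within replicates 3 and 4 and 0.87 between replicates 3 and 4 and Kyse30, the esophageal carcinoma line of the series. Among themselves the libraries of replicates 1 and 2 had ρ-values of 0.783 to 0.97, with a median of 0.848. Their median total was 4260356 counts, against 9259762 in replicates 3 and 4. Replicates 1 and 2 were not used in the main fit. All 16 squamous epithelial markers examined were detected, among them TP63 (16.7 to 64.7 CPM) and EPCAM itself (379 to 450 CPM). The summed level of these markers was 6360 to 6580 CPM with EpEX and 5640 to 6270 CPM with EGF, against 2390 to 3040 CPM in the controls. KRT17 took most of this sum with EpEX and with EGF, though not in the controls. The other 15 markers summed to 2469 to 2687 CPM with EpEX, 2500 to 2846 CPM with EGF, and 1791 to 2173 CPM in the controls. Markers of leukocytes summed to at most 2.97 CPM, and 6 of 10 were at 0 in all 6 libraries. For fibroblast markers the sums were 12.2 to 19.2 CPM and for endothelial markers 5.07 to 9.52 CPM.

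No gene passed the threshold between EpEX and EGF. Of 16022 genes tested, 0 were differentially expressed (DEGs: adjusted p of at most 0.05 and absolute log2FC over 0.5) with edgeR's quasi-likelihood test, which is 0% in either direction. At an unadjusted p under 0.05 there were 506 genes (3.16%), of which 301 were higher with EpEX (1.88%) and 205 lower (1.28%). The smallest adjusted p was 1. DESeq2 also gave 0 DEGs, and its unadjusted p was under 0.05 in 405 genes. Against each dose alone the count was again 0 (0%). Unadjusted p was under 0.05 in 452 genes for EGF high (389 in DESeq2, with 0 DEGs) and in 416 for EGF low (356 in DESeq2, with 0 DEGs). Both EpEX libraries lay above all 4 EGF libraries in 868 genes (5.42%) and below all of them in 677 genes (4.23%).

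The absence of DEGs does not show that EpEX and EGF act alike, and the intervals say how large a difference the fit could have missed. Their width rests on the spread over all 20 libraries in the fit, other treatments and times included, and not on these 6 alone. Among 9511 genes with a mean of at least 5 CPM over the 6 libraries, the 95% interval of the log2FC lay within 2-fold in both directions for 8188 genes (86.1%) and within 4-fold for 9479 (99.7%). It lay within 1.41-fold, which is the threshold for DEGs, for 2944 (31%). The median distance from the estimate to either end of the interval was 0.467 on the log2 scale for these genes and 0.684 over all 16022 genes, of which 8420 (52.6%) had an interval within 2-fold. For the remaining genes a difference of 2-fold or more lies within the interval, so that the libraries do not say whether there is one.

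Each treatment had a marked response of its own against its control. With EpEX against Fc, 393 genes rose (2.45%) and 167 fell (1.04%). With EGF against untreated cells, both doses together, 525 rose (3.28%) and 278 fell (1.74%). These comparisons share no library. Of the genes that rose, 328 were common to both, which is 83.5% of the EpEX list and 62.5% of the EGF list. Of those that fell, 91 were common, 54.5% of the EpEX list and 32.7% of the EGF list. No gene (0) was called in opposite directions. Across the 9511 genes of at least 5 CPM, Pearson's r between the log2FC values was 0.785 and Spearman's ρ 0.655. Over all 16022 genes these were 0.239 and 0.376. Genes are not independent replicates, and the values describe these libraries only. Fc against untreated cells had 0 DEGs (0%) by edgeR, where 275 genes had an unadjusted p under 0.05, and 0 by DESeq2, where 221 did.

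**Figure D1:**
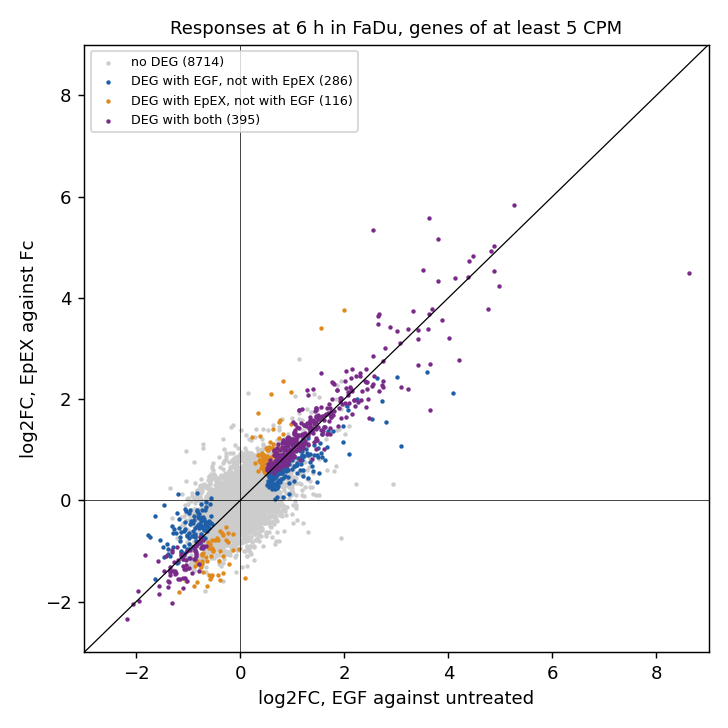
Log2 fold change of 9511 genes in FaDu cells at 6 h, with EGF against untreated cells on the x axis and EpEX against Fc on the y axis, each point 1 gene and the diagonal marking equal values. The 395 genes called with both treatments lie mostly near the diagonal, 286 were called with EGF and not with EpEX, and 116 with EpEX and not with EGF.

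A gene called with 1 treatment and not with the other is not shown to differ between them. Of the 65 genes that rose with EpEX and were not called with EGF, 65 had a log2FC of the same sign with EGF, and of the 197 that rose with EGF and were not called with EpEX, 196 had the same sign with EpEX. For genes that fell the counts were 74 of 76 and 175 of 187. In the direct comparison, unadjusted p was under 0.05 in 5 of the 65, 7 of the 197, 29 of the 76, and 42 of the 187, against 3.16% of all genes. None of these genes (0) was a DEG in the direct comparison, which shares its EpEX and EGF libraries with these lists, so that these shares are no independent evidence. The difference of both effects, that is EpEX minus Fc minus the difference of EGF and untreated cells, was tested for all genes. It had 0 DEGs (0%) by edgeR, where 460 genes had an unadjusted p under 0.05, and 0 by DESeq2, where 361 did. The size of the lists depended on single libraries. Without Fc replicate 3 the DEGs of EpEX against Fc were 254 in place of 560, without Fc replicate 4 they were 286, and without EpEX replicate 4 they were 279. Without untreated replicate 3 the DEGs of EGF were 240 in place of 803, and without untreated replicate 4 they were 379. With all 41 libraries labelled FaDu in the fit, 0 DEGs of EpEX against Fc and 2 of EGF against untreated cells were left.

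The EGFR ligands AREG, EREG, HBEGF, and TGFA rose with both treatments, and their levels with EpEX overlapped those with EGF. AREG (amphiregulin, chr4:74445134-74455009) was at 27.5 and 45 CPM in untreated cells and at 15.9 and 26.8 CPM with Fc. It reached 272 and 579 CPM with EGF low, 229 and 585 CPM with EGF high, and 339 and 662 CPM with EpEX (replicates 3 and 4). In each group replicate 4 was the higher library. AREG rose by a log2FC of 4.54 ± 0.49 (SE) with EpEX and 3.52 ± 0.44 with EGF (adjusted p = 1.9e-05 and 7.2e-05), while the direct log2FC was 0.27 (95% interval -0.48 to 1.01, unadjusted p = 0.46). HBEGF, which encodes heparin-binding EGF-like growth factor, was at 14.3 to 20.4 CPM in the 4 control libraries. It was at 178 and 206 CPM with EGF low, 123 and 186 CPM with EGF high, and 171 and 279 CPM with EpEX. The highest library was an EpEX library, yet the groups overlapped, and the direct log2FC was 0.39 (-0.27 to 1.04). EREG (epiregulin) went from at most 2.53 CPM in the controls to 16 and 38.7 CPM with EGF low, 17.2 and 37.2 CPM with EGF high, and 27.6 and 49.8 CPM with EpEX, with a direct log2FC of 0.51 (-0.44 to 1.45). TGFA (transforming growth factor α) was at 11.7 to 21.8 CPM in the controls, 31 and 38.1 CPM with EGF low, 26.9 and 40.9 CPM with EGF high, and 37.5 and 52.5 CPM with EpEX, with a direct log2FC of 0.4 (-0.16 to 0.95). All 4 ligands rose with EpEX and with EGF, and in each the EpEX libraries overlapped the EGF libraries. Between libraries of the same number, EpEX lay above both EGF doses for AREG, EREG, and TGFA, though not for HBEGF in replicate 3, and the labels do not say that a number marks a shared culture. EGFR itself rose by 0.68 ± 0.17 with EpEX (adjusted p = 0.03) and 0.58 ± 0.15 with EGF (adjusted p = 0.029), with a direct log2FC of 0.05 (-0.25 to 0.36). Single libraries decided the calls of EGFR and TGFA. For EpEX both were lost without Fc replicate 3, Fc replicate 4, or EpEX replicate 4, where log2FC was 0.465 to 0.867 for EGFR and 1.06 to 1.54 for TGFA over all 4 fits. For EGF both were lost without untreated replicate 3, EGF high replicate 4, or EGF low replicate 4, and that of EGFR also without untreated replicate 4, with 0.462 to 0.7 for EGFR and 0.646 to 1.55 for TGFA over all 6 fits. With all libraries labelled FaDu the log2FC of EGFR with EGF was -0.71. Of the 11 tested EGFR ligands and receptors, 5 rose with EpEX and 6 with EGF, against 2.45% and 3.28% of all genes. The sixth with EGF was NRG1 (neuregulin 1), with a log2FC of 2.25 against 2 with EpEX (adjusted p = 0.059).

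**Figure D2:**
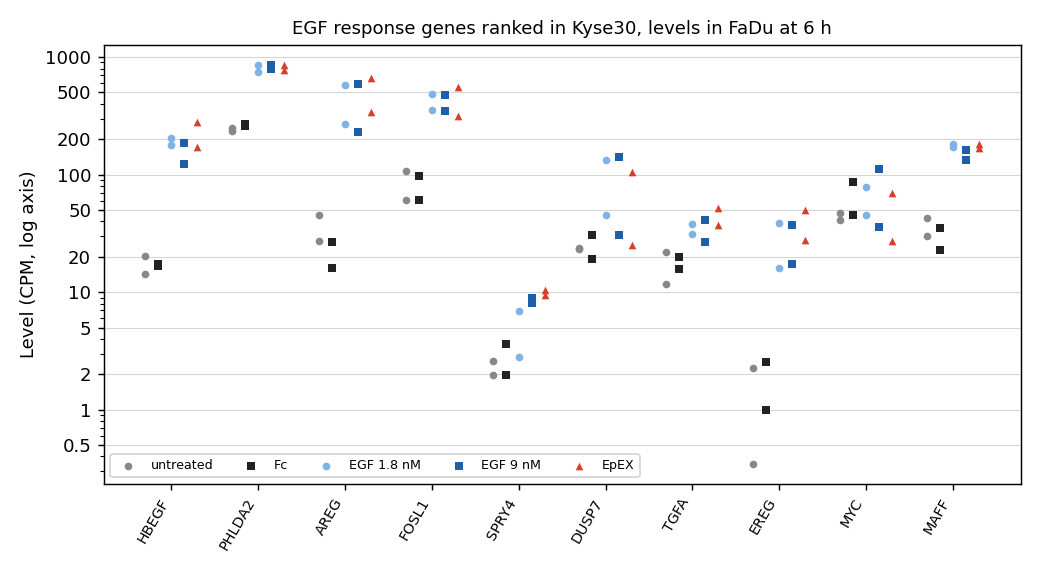
Levels (CPM, log axis) in FaDu cells at 6 h of 10 EGF response genes, named by their log2FC with EGF in Kyse30. Not all of them passed the threshold with EGF. Each group has 2 libraries (replicates 3 and 4), each point 1 library. For AREG, HBEGF, EREG, FOSL1, PHLDA2, TGFA, and MAFF the EpEX libraries lie in or near the range of the EGF libraries and above the untreated and Fc libraries.

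The other response genes were named by their rank with EGF in Kyse30 cells, whose libraries take no part in the FaDu fit. The ligands above were ranked in the same way. The rank used the log2FC alone. By edgeR's test SPRY4, DUSP7, TGFA, MYC, and MAFF did not pass the threshold with EGF in Kyse30 (adjusted p = 0.088, 0.21, 0.068, 0.57, and 0.18). SPRY4, DUSP7, and MYC did not pass it with EGF in FaDu either (adjusted p = 0.075, 0.074, and 0.44). Only genes with a mean of at least 5 CPM over the 6 FaDu libraries with EpEX or EGF were ranked. EREG and SPRY4 were under 5 CPM in all controls and passed through the treated libraries, so the choice is not fully independent of FaDu. PHLDA2, which encodes a small lipid-binding protein that restrains growth signalling, was at 235 to 268 CPM in the controls, 849 and 740 CPM with EGF low, 862 and 790 CPM with EGF high, and 864 and 776 CPM with EpEX, so that same-numbered libraries differed by little. Its direct log2FC was 0.02 (-0.28 to 0.32), which lies within 2-fold. FOSL1, an AP-1 subunit typical of sustained ERK activity, was at 60.9 to 108 CPM in the controls, 352 and 485 CPM with EGF low, 347 and 478 CPM with EGF high, and 318 and 555 CPM with EpEX (direct log2FC 0.07, -0.58 to 0.72). MAFF, a small Maf protein that pairs with other leucine zipper factors, was at 23 to 42.6 CPM in the controls, 172 and 183 CPM with EGF low, 133 and 162 CPM with EGF high, and 169 and 184 CPM with EpEX (direct log2FC 0.13, -0.36 to 0.61). SPRY4, a Sprouty inhibitor of ERK signalling, was the only 1 of the 10 in which EpEX did not overlap EGF, with 9.46 and 10.5 CPM against 2.83 to 8.92 CPM. Its direct log2FC was 0.63 (-0.21 to 1.47, unadjusted p = 0.13), and neither treatment passed the threshold against its control. DUSP7, a phosphatase of ERK, showed the widest spread between replicates, with 45.2 and 134 CPM for EGF low, 30.4 and 140 CPM for EGF high, and 25.2 and 106 CPM for EpEX. MYC was at 45.1 and 78.6 CPM with EGF low, 36 and 113 CPM with EGF high, and 27.4 and 69.9 CPM with EpEX, within or near the 41.2 to 87.3 CPM of the controls. Of the 10 genes, 7 rose with both treatments, against 328 of all 16022 genes. A direct interval within 2-fold was found for 4 of the 10, against 86.1% of all genes of at least 5 CPM. In 9 of the 10 replicate 4 was above replicate 3 in all 3 treatments.

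Regulatory sequence is shown for AREG, MAFF, F3, and ICAM1, which all rose with both treatments. RefSeq promoters (build GRCh38.p14, 250 bases before to 50 after the start site) were found for 10948 of the genes tested and 30 of the 41 named genes. Motifs were searched on both strands. The AP-1 site (TGACTCA or TGAGTCA) was in 3.17% of all these promoters and in 19 of 250 promoters of genes that rose with both treatments (7.6%). For genes that rose with EGF and were not called with EpEX it was 11 of 158 (6.96%), and for the reverse 3 of 53 (5.66%). The CArG box of serum response factor was in 1.09% of all and in 4.8%, 2.53%, and 3.77% of these groups. The cAMP response element (TGACGTCA, which does not overlap the AP-1 site) was in 3.31% of all and in 4.8%, 1.9%, and 1.89%. A match describes the letters and is no proof of binding. Shown 5′ to 3′ up to the base before the start site, with the match in capitals, are AREG and MAFF with a cAMP response element 65 and 54 bases before the start, and F3 (tissue factor) with an AP-1 site at 210 bases. Of the 10 response genes only AREG and MAFF are shown, so the sequences do not show an element shared by the response genes. ICAM1 holds the NF-kB string GGAAATTCC, found in 0.448% of all promoters, at 186 bases. It was named for its small unadjusted p between EpEX and EGF, not for its rise with both. F3 was chosen after its values were seen, as the gene with the second largest log2FC with EGF among those that rose with both treatments and hold an AP-1 site. The largest was that of SGPP2, which was at 0 CPM in both untreated libraries. RefSeq start sites of F3, ICAM1, and MAFF lie inside the longer gene models used for counting.
AREG, chr4:74444986-74445135, plus strand: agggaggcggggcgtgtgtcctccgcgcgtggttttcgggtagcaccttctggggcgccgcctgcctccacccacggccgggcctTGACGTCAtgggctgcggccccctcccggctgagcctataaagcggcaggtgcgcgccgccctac
MAFF, chr22:38201844-38201993, plus strand: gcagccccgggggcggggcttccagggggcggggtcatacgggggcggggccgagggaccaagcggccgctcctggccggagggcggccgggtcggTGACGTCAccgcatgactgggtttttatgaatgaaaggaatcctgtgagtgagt
F3, chr1:94541760-94542009, minus strand: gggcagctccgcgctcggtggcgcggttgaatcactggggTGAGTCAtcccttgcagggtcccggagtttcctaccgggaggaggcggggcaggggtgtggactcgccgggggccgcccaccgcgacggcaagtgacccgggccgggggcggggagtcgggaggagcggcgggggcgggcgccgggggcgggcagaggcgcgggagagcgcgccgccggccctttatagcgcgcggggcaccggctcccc
ICAM1, chr19:10270870-10271119, plus strand: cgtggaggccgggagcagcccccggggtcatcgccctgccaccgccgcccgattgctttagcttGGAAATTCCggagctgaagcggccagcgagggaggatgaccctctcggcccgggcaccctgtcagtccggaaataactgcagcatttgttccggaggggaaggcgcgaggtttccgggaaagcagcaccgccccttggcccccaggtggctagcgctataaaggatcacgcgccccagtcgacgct
F3, which starts blood coagulation on the cell surface, was at 10.2 to 16.9 CPM in the 4 control libraries, 267 and 428 CPM with EGF low, 211 and 489 CPM with EGF high, and 220 and 338 CPM with EpEX. The groups overlapped, and the direct log2FC was -0.32 (-1.12 to 0.47).

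Of 26 feedback regulators, 7 rose with EpEX and 6 with EGF, against 2.45% and 3.28% of all genes, and 1 fell with EGF, against 1.74%. DUSP5 rose by a log2FC of 1.6 with EpEX and 1.51 with EGF, and its direct log2FC was -0.01. DUSP4 rose by 1.44 and 1.72, and ERRFI1, which encodes an inhibitor of the EGFR kinase, by 1.48 and 1.23. PHLDA1 rose by 2.18 and 1.85. SPRY1 was the exception. It was at 12 to 15.3 CPM in the controls, 1.74 and 2.13 CPM with EGF low, 5.23 and 1.1 CPM with EGF high, and 5.2 and 5.33 CPM with EpEX. It fell with EGF (log2FC -2.44, adjusted p = 0.0013), while its log2FC with EpEX was -1.32 (adjusted p = 0.18), and 1 EGF high library reached the level of the EpEX libraries (direct log2FC 1.07, unadjusted p = 0.026). Among 31 immediate early and AP-1 genes, 6 rose with EpEX and 7 with EGF, and 4 fell with EGF. FOSB was at 25.2 and 27.2 CPM with EpEX, above 13.3 to 23.4 CPM with EGF. It fell with EGF (log2FC -1.22, adjusted p = 0.0054), and its log2FC with EpEX was -0.25 (adjusted p = 0.79).

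**Figure D3:**
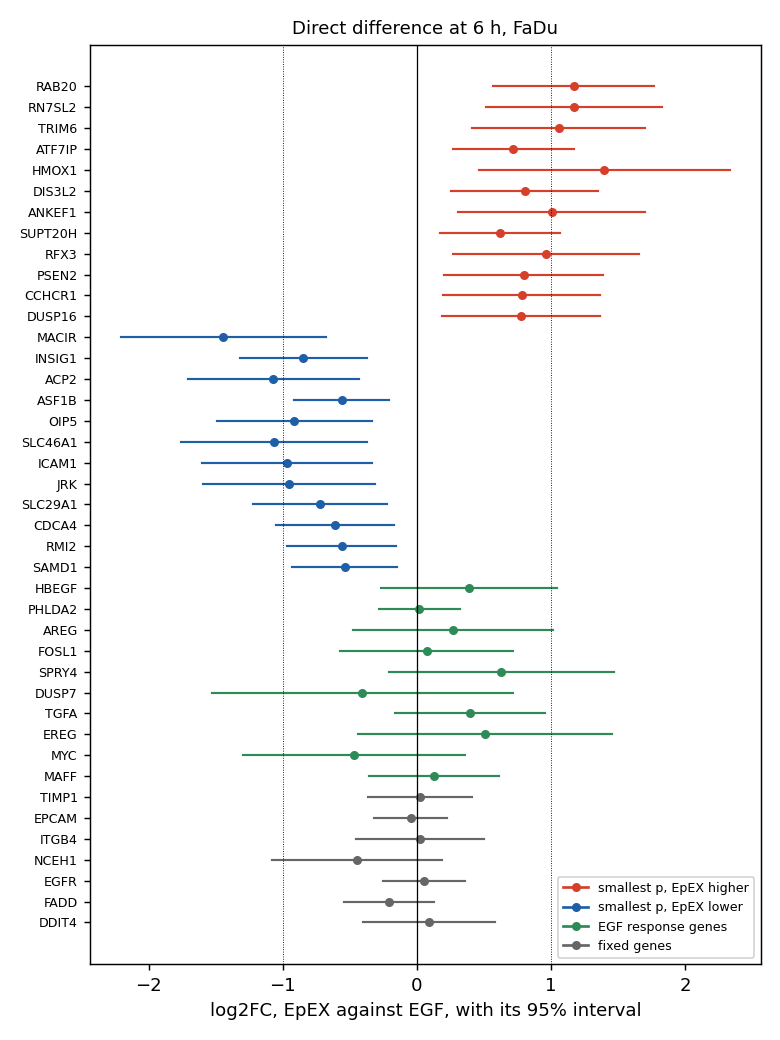
Direct log2 fold change of the 41 named genes, EpEX against EGF, with its 95% interval, and dotted lines at 2-fold. Intervals of the EGF response genes and the fixed genes cross 0, and those of the 24 genes with the smallest unadjusted p do not, which is how they were chosen.

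Since no gene passed the threshold, the genes with the smallest unadjusted p in each direction are given as the nearest candidates, among genes of at least 5 CPM whose EpEX and EGF libraries did not overlap (477 genes with EpEX above, 386 with EpEX below). None of these 24 genes passed the threshold, and their p-values chose them. For the 12 genes higher with EpEX, unadjusted p ranged from 0.000692 to 0.013 and log2FC from 0.62 to 1.4. RAB20, a small GTPase of endosomes and phagosomes, was at 10.9 to 15 CPM in the controls, 7.39 and 5.27 CPM with EGF low, 2.67 and 2.75 CPM with EGF high, and 9.06 and 9.6 CPM with EpEX. Levels with EpEX were close to those with Fc, while both EGF doses lay lower. The direct log2FC was 1.17 (0.57 to 1.77), and RAB20 fell with EGF against untreated cells (log2FC -1.64, adjusted p = 0.0015) with -0.3 (adjusted p = 0.77) for EpEX against Fc. TRIM6, a ubiquitin ligase, was at 13.8 to 16 CPM in the controls, 3.26 and 5.47 CPM with EGF low, 3.43 and 5.4 CPM with EGF high, and 6.4 and 11.7 CPM with EpEX. It fell with EGF (log2FC -1.78, adjusted p = 0.0013), against -0.69 with EpEX (adjusted p = 0.4), and reads of TRIM6 can be lost to an overlapping readthrough gene. ATF7IP, a partner of the histone methyltransferase SETDB1, was at 22.7 to 26.5 CPM in the controls, 10.9 to 17.2 CPM with EGF, and 23.9 and 20.9 CPM with EpEX. It fell with EGF (log2FC -0.82, adjusted p = 0.031), against -0.2 with EpEX (adjusted p = 0.8). The call of ATF7IP was lost without either untreated library or replicate 3 of either EGF dose, and that of RAB20 without untreated replicate 3. In these 3 genes the log2FC with EpEX was nearer to 0 than that with EGF. The difference of effects had unadjusted p-values of 0.0064, 0.029, and 0.077 (adjusted p = 1 for each). These 3 genes were chosen on the same EpEX and EGF libraries, so that neither result is independent evidence. HMOX1, the inducible heme oxygenase, had the largest log2FC (1.4, 0.46 to 2.34), with 14 and 7.08 CPM for EpEX, 2.67 to 5.43 CPM for EGF, and 4.48 to 13.2 CPM in the controls, a spread as wide as the difference. PSEN2, a catalytic subunit of the γ-secretase that cuts EpCAM after its ectodomain is shed, was at 8.93 and 11.2 CPM with EpEX against 5.37 to 6.5 CPM with EGF and 6.58 to 7.34 CPM in the controls. DIS3L2, a 3′ to 5′ exoribonuclease, was at 16.9 and 16.1 CPM with EpEX against 6.95 to 10.8 CPM with EGF and 7.59 to 10.2 CPM in the controls. The other genes of this group were RN7SL2 (an RNA of the signal recognition particle, with near-identical copies whose reads may be split), ANKEF1, SUPT20H (a SAGA subunit), RFX3 (a factor of ciliary genes), CCHCR1, and DUSP16 (a phosphatase of JNK and p38), with log2FC values of 0.62 to 1.17. Of the 12, 11 had a log2FC below 0 for EGF against untreated cells, which uses the same EGF libraries as the direct comparison.

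**Figure D4:**
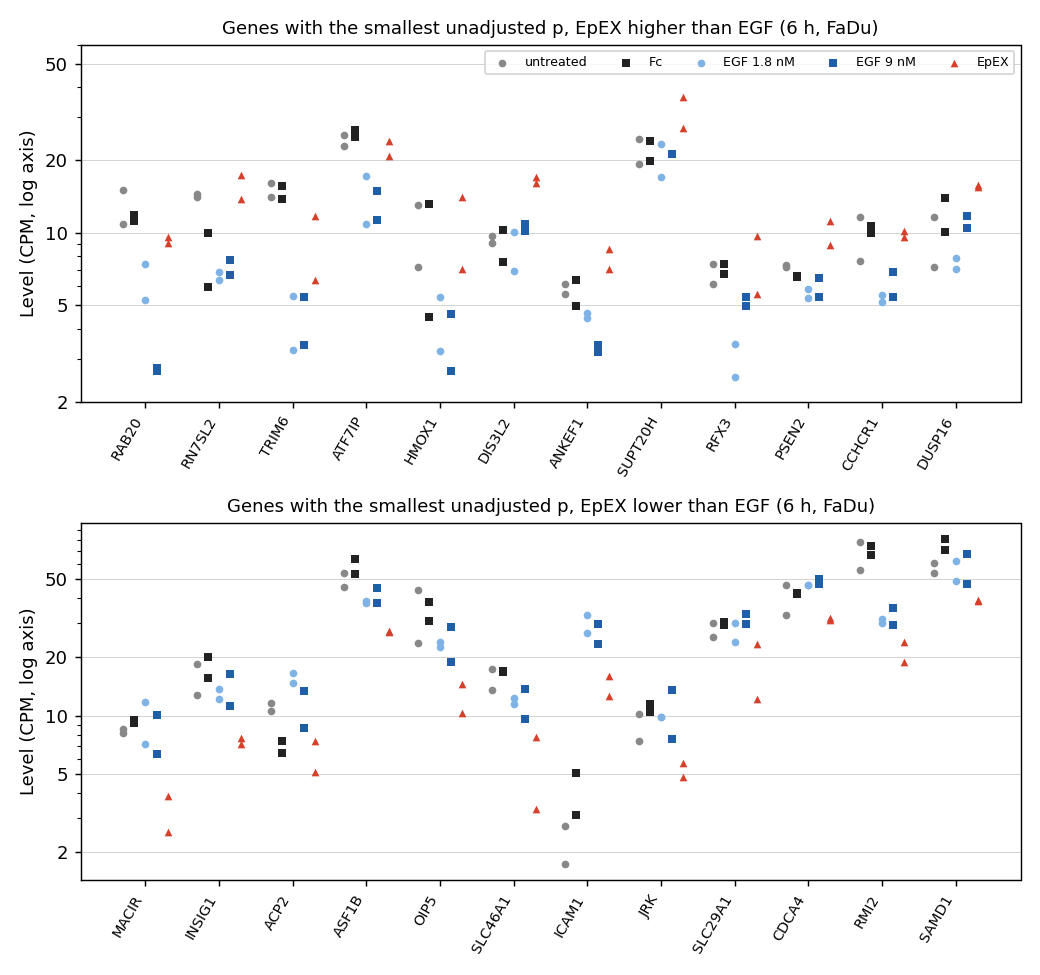
Levels (CPM, log axis) of the 24 genes with the smallest unadjusted p between EpEX and EGF in FaDu cells at 6 h, 2 libraries per group, each point 1 library. EpEX lies above all 4 EGF libraries in the first 12 genes and under all of them in the other 12, as the choice of these genes required.

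For the 12 genes lower with EpEX, unadjusted p ranged from 0.000907 to 0.00988 and log2FC from -1.45 to -0.538. ICAM1, an adhesion receptor for leukocyte integrins and a target of NF-kB, whose promoter is shown above, was the only 1 of them that rose with both treatments. It was at 1.74 and 2.72 CPM in untreated cells, 3.11 and 5.06 CPM with Fc, 26.4 and 32.7 CPM with EGF low, 29.5 and 23.2 CPM with EGF high, and 16 and 12.6 CPM with EpEX. All EGF libraries lay above both EpEX libraries, and all treated libraries above all controls. ICAM1 rose by 3.64 ± 0.37 with EGF (adjusted p = 7.5e-06) and 1.79 ± 0.36 with EpEX (adjusted p = 0.0075), and the direct log2FC was -0.97 (-1.6 to -0.34, unadjusted p = 0.0047, adjusted p = 1). For ICAM1 the difference of effects was -1.85 (unadjusted p = 0.0016, adjusted p = 1), with 0.88 for Fc against untreated cells. ICAM1 was chosen on the same EpEX and EGF libraries, so that this difference is no independent evidence. INSIG1, which retains the sterol sensor of cholesterol synthesis in the endoplasmic reticulum, was at 12.8 to 20.1 CPM in the controls, 11.2 to 16.5 CPM with EGF, and 7.2 and 7.66 CPM with EpEX. It fell with EpEX (log2FC -1.26, adjusted p = 0.0069), with -0.22 for EGF (adjusted p = 0.65). ASF1B, a histone chaperone of DNA replication, was at 45.6 to 63.3 CPM in the controls, 37.7 to 44.9 CPM with EGF, and 26.9 and 27.1 CPM with EpEX (log2FC against Fc -1.11, adjusted p = 0.002). OIP5, which takes part in loading the centromeric histone, was at 18.8 to 28.4 CPM with EGF and 14.5 and 10.4 CPM with EpEX (log2FC against Fc -1.47, adjusted p = 0.0098). RMI2, a subunit of the BLM helicase complex, fell with both treatments, from 56.1 to 78 CPM in the controls to 29.1 to 35.5 CPM with EGF and 23.9 and 18.9 CPM with EpEX. That both EpEX libraries lay below all EGF libraries was a condition for naming these genes. MACIR had the largest difference, with 2.53 and 3.88 CPM for EpEX against 6.38 to 11.8 CPM for EGF and 8.12 to 9.52 CPM in the controls (direct log2FC -1.45, -2.21 to -0.68). SLC46A1, a folate transporter, was at 3.33 and 7.76 CPM with EpEX against 9.58 to 13.7 CPM with EGF. The remaining genes were ACP2 (a lysosomal acid phosphatase), JRK, SLC29A1 (a nucleoside transporter), CDCA4, and SAMD1 (a protein of CpG islands). Of the 12, 7 fell with EpEX against Fc and 1 with EGF against untreated cells, against 1.04% and 1.74% of all genes. Single libraries decided several of these calls. That of MACIR was lost without any 1 of the 4 libraries, SLC46A1 without EpEX replicate 3 or either Fc library, and SAMD1 without either EpEX library or Fc replicate 4. INSIG1 was lost without replicate 4 of Fc or EpEX, OIP5 without Fc replicate 3 or EpEX replicate 4, and the rise of ICAM1 without Fc replicate 3. RMI2 with EGF was lost without untreated replicate 3. EpEX against Fc shares the EpEX libraries with the direct comparison, and EGF against untreated cells shares its EGF libraries. The direct comparison chose these genes, so that the counts of falls are no independent evidence.

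Named for other reasons were EPCAM and genes the study discusses. EPCAM was at 394 to 438 CPM in the controls, 381 to 450 CPM with EGF, and 379 and 418 CPM with EpEX, with a direct log2FC of -0.05 (-0.32 to 0.23). ITGB4, the integrin chain of hemidesmosomes, had a direct log2FC of 0.02 (-0.45 to 0.5), TIMP1, an inhibitor of metalloproteinases, 0.02 (-0.37 to 0.41), and DDIT4, an inhibitor of mTORC1, 0.09 (-0.4 to 0.58). FADD, an adaptor of death receptors, had -0.21 (-0.54 to 0.13). NCEH1, a cholesterol ester hydrolase, had -0.45 (-1.08 to 0.19), with 14.4 and 29.3 CPM for EpEX and 24.6 to 38.2 CPM for EGF. All 7 fixed genes, EGFR included, overlapped between EpEX and EGF, and 6 had an interval within 2-fold, against 86.1% of all genes of at least 5 CPM.

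Gene lists were described by counts and medians. In the direct comparison 0 members of any list were DEGs. The median log2FC over all genes was 0.0136, with 52.2% above 0 and 47.1% below. Of 17 targets of NF-kB, 7 rose with EpEX and 8 with EGF, against 2.45% and 3.28% of all genes, and the medians of the list were 1.04 and 1.1. TNFAIP3, which ends NF-kB signalling, was at 0.709 to 1.9 CPM in the controls, 34 and 64.8 CPM with EGF low, 34.9 and 41 CPM with EGF high, and 36.4 and 33.5 CPM with EpEX. RELB, an NF-kB subunit, was at 29.4 to 52.2 CPM with EGF and 38.5 and 29.3 CPM with EpEX. Both overlapped. In 4 of the 17 (ICAM1, NFKB1, BCL3, and SOD2) both EpEX libraries lay below all EGF libraries, against 4.23% of all genes. In 0 of the 17 they lay above, against 5.42%. The median of the list in the direct comparison was -0.148, with 10 of 17 below 0. Chemokines and cytokines had medians of 1.6 with EpEX and 1.55 with EGF, yet 2 of 17 rose with each, and many members were at low levels. IL11, a cytokine of the interleukin 6 family, was at 13.7 and 21.9 CPM with EGF low, 8.28 and 37.6 CPM with EGF high, and 13.1 and 34.3 CPM with EpEX, against at most 1.9 CPM in the controls.

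Among structural genes, CLDN1, a tight junction protein, was at 8.93 to 13.3 CPM in the controls, 60.4 to 120 CPM with EGF, and 44.2 and 160 CPM with EpEX. KRT17, a keratin of stressed epithelium, was at 589 to 896 CPM in the controls, 3070 to 3422 CPM with EGF, and 4108 and 3676 CPM with EpEX. Both EpEX libraries of KRT17 lay above the EGF libraries, with a direct log2FC of 0.26 (-0.11 to 0.62, unadjusted p = 0.16). ELF3, an epithelial transcription factor, fell with both, from 162 to 214 CPM in the controls to 37.3 to 78.1 CPM with EGF and 54.1 and 39.4 CPM with EpEX. Of 11 hemidesmosome and basement membrane genes, 2 rose with EpEX and 4 with EGF, and 9 had a direct interval within 2-fold. The partial EMT signature (95 genes tested) held 11 genes that rose with EpEX and 18 with EGF, and the EMT hallmark (135 genes tested) 21 and 26, with direct medians of -0.025 and -0.0342. Over all genes 2.45% rose with EpEX and 3.28% with EGF. The EGFR-mediated EMT signature of the study (171 genes), which was chosen on libraries of this series and is no independent evidence, had direct intervals within 2-fold for 144 genes (84.2%). This share was 86.1% over all genes of at least 5 CPM and 52.6% over all genes. Of the signature, 1 gene rose and 1 fell with EpEX, while 5 rose and 4 fell with EGF. Over all genes 1.04% fell with EpEX and 1.74% with EGF. CDKN1A, an inhibitor of cyclin-dependent kinases and a p53 target, was at 11.7 to 29 CPM in the controls, 126 and 194 CPM with EGF low, 104 and 146 CPM with EGF high, and 148 and 232 CPM with EpEX.

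Proliferation genes were described as mitosis and S phase lists. For mitosis genes (30 tested), medians were -0.427 with EpEX and -0.468 with EGF, and 3 and 7 genes fell, against 1.04% and 1.74% of all genes. All 30 had a direct interval within 2-fold, against 86.1% of all genes of at least 5 CPM, and their direct median was 0.0178. TOP2A, the topoisomerase of chromosome segregation, was at 552 to 733 CPM in the controls, 353 to 389 CPM with EGF, and 414 and 376 CPM with EpEX. For S phase genes (25 tested), the median was -0.512 with EpEX and -0.135 with EGF, 2 genes fell with each, and 21 of 25 had a direct log2FC below 0, with a median of -0.138. MCM2, a subunit of the replicative helicase, was at 91.4 and 117 CPM with EpEX, against 118 to 181 CPM with EGF and 130 to 205 CPM in the controls. PCNA, the clamp of DNA polymerases, was at 133 and 129 CPM with EpEX, against 145 to 180 CPM with EGF and 154 to 209 CPM in the controls. For both genes the EpEX libraries lay below all EGF libraries, in MCM2 by less than the distance between the EpEX replicates (unadjusted p = 0.019 and 0.039). Medians in Fc against untreated cells were 0.129 for S phase and 0.0166 for mitosis genes. Ribosome biogenesis genes (42 tested) had a direct median of -0.0671, with 29 below 0 and all 42 intervals within 2-fold. DDX21, an RNA helicase of ribosome synthesis, was at 1073 to 1142 CPM in the controls, 2033 to 2083 CPM with EGF, and 2080 and 2126 CPM with EpEX. ATF4 targets (22 tested) were above 0 in 17 genes, with a median of 0.0938, and SESN2, a stress-induced inhibitor of mTORC1, was at 616 and 629 CPM with EpEX, 481 to 532 CPM with EGF, and 192 to 295 CPM in the controls. Of 13 genes of MHC class I presentation, 11 were below 0 in the direct comparison, with a median of -0.193. None of these genes passed the threshold between EpEX and EGF.

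**Figure D5:**
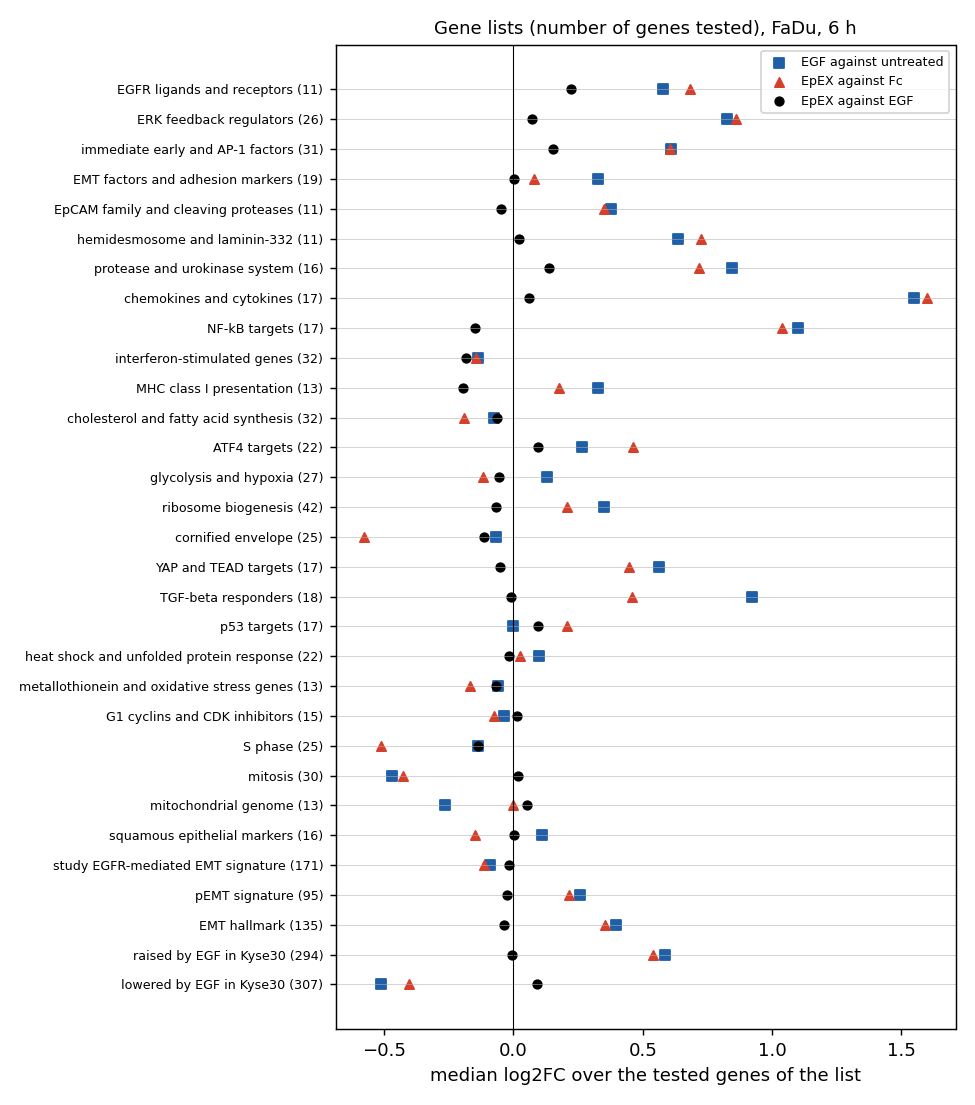
Median log2 fold change of gene lists with at least 10 tested genes in FaDu cells at 6 h, with squares for EGF against untreated cells, triangles for EpEX against Fc, and circles for EpEX against EGF. Circles stay between -0.193 and 0.225, while squares and triangles reach 1.55 and 1.6 for chemokines and cytokines.

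Kyse30 libraries, which took no part in the FaDu fit, gave a list of EGF response genes. In Kyse30, EGF against untreated cells gave 294 genes that rose (1.92% of 15350 tested) and 323 that fell (2.1%). All 294 were tested in FaDu, where their median log2FC was 0.54 with EpEX and 0.585 with EGF. Of these, 99 rose with EpEX and 122 with EGF, against 2.45% and 3.28% of all genes, and 0 fell with either. In the direct comparison 142 were above 0 and 152 below, and the median was -0.00467. An interval within 2-fold was found for 256 (87.1%), against 86.1% of all genes of at least 5 CPM. Of the genes that fell in Kyse30, 307 were tested in FaDu. Their median was -0.403 with EpEX and -0.51 with EGF. Of them, 25 and 57 fell, against 1.04% and 1.74% of all genes, while 1 rose with each. In the direct comparison 206 of 307 were above 0, with a median of 0.0917, against 52.2% above 0 over all genes. At an unadjusted p under 0.05, 13 of them were higher with EpEX and 2 lower, against 1.88% and 1.28% of all genes.

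The same direct comparison in Kyse30 (11 libraries) gave 1 DEG that was higher with EpEX (0.00651%) and 0 that were lower (0%), while unadjusted p was under 0.05 in 1024 genes. The gene was KLHL24, an adaptor of a ubiquitin ligase, named after its value was seen, with a log2FC of 1.62 ± 0.298 (adjusted p = 0.0364). In FaDu, KLHL24 was at 6.09 to 7.77 CPM in the controls, 2.83 and 3.04 CPM with EGF low, 3.43 and 3.31 CPM with EGF high, and 4.13 and 6.5 CPM with EpEX. Both EpEX libraries lay above the EGF libraries, with a direct log2FC of 0.76 (-0.07 to 1.59). Leaving out 1 of the 11 Kyse30 libraries at a time gave 0 to 2 DEGs and 0 in 8 fits: those without EGF high replicates 1, 2, or 3, EGF low replicates 1, 2, or 3, or EpEX replicates 1 or 4. DESeq2 gave 5 DEGs. The direct log2FC in FaDu minus that in Kyse30 was tested as a contrast of its own, over 19634 genes. edgeR found 0 DEGs (0%), an unadjusted p under 0.05 in 702 genes, and a smallest adjusted p of 0.689. DESeq2 was not run for this contrast. Of the 41 named genes, RAB20 had the smallest unadjusted p of this contrast (0.0042), with a direct log2FC of 1.17 in FaDu and -0.2 in Kyse30, and did not pass the threshold.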

How the data were processed

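QuantSeq 3′ RNA-seq libraries were made by the authors, who deposited whole-number counts per gene for each library (58395 gene rows). The submitters' processing notes name STAR, HTSeq, and GRCh38 (hg38). Versions, the strand setting, the annotation, and handling of molecular identifiers are not given in the sources used here. Symbols came from GENCODE 29, which named 58275 of these rows. Rows with no gene were left out. In the 6 libraries, reads without a unique position were 45.7% to 51.3%, reads outside genes 5.76% to 9.13%, and ambiguous reads 0.694% to 0.788%.

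All 20 FaDu libraries with replicate numbers 3 and 4 (6217938 to 12442349 counts) entered 1 fit in edgeR 4.0.16 (R 4.3.3) with TMM scaling and filterByExpr (minimum count 10, minimum total 15), followed by the quasi-likelihood F test and Benjamini-Hochberg adjustment. Contrasts were EpEX minus the mean of both EGF doses, EpEX minus Fc, and EGF minus untreated. The threshold for DEGs was the study's (adjusted p up to 0.05, log2FC beyond 0.5 in either direction). SEs and 95% intervals were derived from the F test. Named genes were the 12 highest and 12 lowest DEGs of the direct comparison at 5 CPM or more without overlap, unfilled places going to the smallest p, plus 7 fixed genes and the 10 EGFR ligand, ERK feedback, or AP-1 genes with the highest log2FC with EGF in Kyse30. Alternatives were DESeq2 1.42.0, other scaling, filters and sets of libraries, a replicate block, and leaving out each library. Members and lists were chosen with earlier results of these data known.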

Additional observations from a re-analysis of the deposited data

Results flagged for a closer look

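Among the 41 named genes, whose 4 EGF libraries were each examined for a single library far from the others, ASF1B was flagged. EGF high replicate 4 was at 44.9 CPM, while the other EGF libraries were at 37.7, 37.9, and 38.9 CPM, so that its gap to the nearest was 0.832 of the whole range, just over Dixon's 95% critical value. Chance flags about 5% of such groups. The 2 EpEX libraries of ASF1B lay below all 4.

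EGF and EpEX given together for 6 h were left out of the comparisons, since only 1 library with replicate number 3 was given. With 1 library there is no test. In this library 8 of the 10 response genes were above all 4 control libraries, and 8 were below all 6 libraries with EpEX or EGF alone. HBEGF was at 31.9 CPM and AREG at 87.5 CPM. Of the 328 genes that rose with both treatments, 259 (79%) were above all 4 control libraries and 310 (94.5%) below all 6. Both sets were chosen partly on their levels in these 6 libraries, which favours such counts. The shares over all genes were not computed.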

How the results depend on the processing

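The direct comparison gave 0 DEGs under every alternative run, with 419 to 786 genes at an unadjusted p under 0.05 when 1 library was left out. Without a filter on low counts, 1 DEG each was found for EpEX against EGF low, the difference of effects, and Fc against untreated cells. With all 41 libraries labelled FaDu, DEGs were 0 for EpEX against Fc and 2 for EGF against untreated cells, and with the replicate block added 0 and 1. In Kyse30 there were 5 DEGs with DESeq2, 4 with the replicate block, and 0 to 2 with 1 library left out. Leaving out 1 library gave 254 to 467 DEGs for EpEX against Fc and 240 to 851 for EGF against untreated cells. The cause was not tested.

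Deviations from the group means correlated between same-numbered libraries by -0.211 to 0.606 (mean 0.181, 5 groups), and the labels tie the numbers to nothing, so the numbers were not taken as pairs. As a hint from the data, each of these 10 libraries correlated best with one of its own number over genes of at least 5 CPM. Spearman's ρ was 0.977 to 0.983 between EpEX and same-numbered EGF libraries and 0.954 between both EpEX libraries. A replicate block gave 0 DEGs for the direct comparison (589 genes at an unadjusted p under 0.05), 763 for EpEX against Fc, and 1074 for EGF against untreated cells.

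With all libraries labelled FaDu, the direct log2FC reversed for HMOX1 (-0.472), PSEN2 (-0.305), INSIG1 (0.215), JRK (0.113), SLC29A1 (0.18), CDCA4 (0.171), RMI2 (0.0997), and MYC (0.0388). With the block added it reversed for SLC29A1 (0.0531), CDCA4 (0.065), RMI2 (0.034), MYC (0.00157), SLC46A1 (0.0582), and ITGB4 (-0.0667). For EpEX against Fc it was -1.85 for AREG and -0.139 for TGFA, and with the block -2.27 for AREG, -0.706 for TGFA, -0.154 for PHLDA2, and 0.0734 for SLC46A1. For EGF against untreated cells it was 0.0253 for RMI2, -0.0628 for TGFA, and -0.71 for EGFR, and with the block 0.151, -0.358, and -1.3. With 1 library left out, direct values changed sign for HBEGF (-0.00816 to 0.691), PHLDA2 (-0.0657 to 0.093), AREG (-0.296 to 0.682), FOSL1 (-0.384 to 0.412), DUSP7 (-1.79 to 0.338), MYC (-1.3 to 0.052), TIMP1 (-0.0818 to 0.149), EPCAM (-0.119 to 0.0173), ITGB4 (-0.0816 to 0.135), EGFR (-0.165 to 0.234), and DDIT4 (-0.00176 to 0.201).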
